A study of Mus musculus with 16 samples.

Results

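MHC class I and immunoproteasome genes were examined in subcapsular sinus macrophages (SSMs) and medullary sinus macrophages (MSMs) of mouse lymph nodes. The group holds 10 genes chosen by name out of 55421 gene rows: the heavy chains H2-K1 and H2-D1, the light chain B2m, the peptide transporter Tap1 and Tap2, the loading protein Tapbp (tapasin), the trimming enzyme Erap1, the transactivator Nlrc5 and the proteasome subunits Psmb8 and Psmb9. All 10 passed the filter on low counts that left 21085 genes.

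All mice were male C57BL/6 animals carrying a MOC2 tumor, a transplantable squamous carcinoma line, placed intradermally in the flank as 500000 cells 2 weeks before collection. The 4 groups were SSMs and MSMs from tumor-draining lymph nodes (tdLN) and from non-draining nodes (ndLN) of the same tumor-bearing mice, so that ndLN were not nodes of tumor-free animals. Each group had 2 libraries, and each library came from nodes pooled from 2 mice (2 tdLN or 6 ndLN) and about 10000 sorted cells. The study numbers the 2 lanes of a library as separate pools and so counts 4 pools. Both subsets were sorted as CD11b+ CD169+ cells, SSMs without CD11c and with low side scatter, and MSMs with CD11c. The 16 deposited samples are these 8 libraries on 2 lanes each, and the lanes were summed because their counts differed by no more than sampling noise (chi-square per degree of freedom between 0.955 and 1.015). Summed libraries held between 42972328 and 48130352 counted reads.

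Class I molecules carry peptides of cytosolic proteins to the cell surface, where CD8+ T cells read them. The peptides are cut by the proteasome, whose constitutive catalytic subunits can be exchanged for interferon-inducible ones (Psmb8, Psmb9 and Psmb10, the immunoproteasome), carried into the endoplasmic reticulum by the Tap1-Tap2 transporter, trimmed there by Erap1 and loaded with the help of tapasin. NLRC5 raises transcription of many class I genes through a conserved promoter module whose parts include an X2 box and a Y box (the reverse of CCAAT), and interferons act on the same genes through STAT and IRF proteins. Sinus macrophages take up lymph-borne material, and the capacity of lymph node phagocytes to show antigen to CD8+ T cells depends in part on these genes.

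The sorted cells were first set against marker lists, because class I genes differ between leukocyte types. Siglec1, which encodes the CD169 used in the gate, was at 8.47 to 15.1 CPM (counts scaled to the normalized library size) in SSMs from ndLN, at 59.2 to 70.0 in SSMs from tdLN and at only 0.795 to 5.96 CPM in MSMs. Itgam, which encodes CD11b, was at 54.6 to 124 CPM in SSMs and at 9.64 to 20.4 CPM in MSMs. The 12 dendritic cell markers, all detected in every library, summed to 5768 to 6542 CPM in MSMs, to 1687 to 2435 CPM in SSMs from ndLN and to 1072 to 1474 CPM in SSMs from tdLN. Most of the SSM sum was Ccr7 (601 to 1877 CPM, against 1644 to 2100 CPM in MSMs). Xcr1 was at 14.2 to 33.6 CPM in SSMs and at 630 to 752 CPM in MSMs. Clec9a, a defining marker of cross-presenting dendritic cells, was at 132 to 203 CPM in MSMs and at 0.807 to 2.08 CPM in SSMs. The 12 sinus macrophage markers summed to 7654 to 10920 CPM in SSMs from ndLN, 18009 to 25595 CPM in SSMs from tdLN and 5873 to 6543 CPM in MSMs. T cell markers summed to 2392 to 2675, 1068 to 1218 and 501 to 859 CPM in the same order, and markers of NK and innate lymphoid cells to 2417 to 2621, 1385 to 1940.0 and 40.0 to 95.03 CPM. Most of the T cell sum of MSMs was Cd8a, which some dendritic cells also express (357 to 605 CPM, against 10.0 to 25.7 CPM in SSMs), whereas Cd3e, a defining T cell marker, was at 2.14 to 16.3 CPM in MSMs and at 75.0 to 151 CPM in SSMs. Mast cell and basophil markers summed to 1752 to 2679 CPM in SSMs from ndLN, 249.6 to 573 CPM in SSMs from tdLN and 270.2 to 619 CPM in MSMs. Nearly all of the MSM sum was Kit (269 to 614 CPM), and the mast cell protease gene Cpa3 was at 0.0256 to 0.330 CPM there, against 36.1 to 113 CPM in SSMs from tdLN and 311 to 562 CPM in SSMs from ndLN. Of the 12 sinus macrophage markers edgeR called, by the rule given below, 4 higher and 2 lower in SSMs of ndLN (6.01% and 6.06% of all tested genes). In tdLN these were 6 and 0 (5.16% and 3.53%). Cd68 was at 134 to 211 CPM in SSMs and 326 to 385 CPM in MSMs from ndLN, and Mertk at 0.129 to 0.465 and 2.70 to 3.82 CPM. The libraries labelled MSM were thus low in both sorting markers of the macrophage gate, but not in every macrophage marker, and high in dendritic cell genes. Every comparison of subsets below is between cells that differed in these markers as well. Their part in the class I values was not tested, and in bulk samples fewer cells of a type and less RNA per cell cannot be told apart.

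B2m lies on mouse chromosome 2, Nlrc5 on chromosome 8, Erap1 on chromosome 13 and the others in the major histocompatibility complex on chromosome 17. RefSeq promoter windows of build GRCm38.p6, which hold 250 bases before and 50 bases after a transcript start, were matched for 8 of the 10 genes, all but Tap2 and Nlrc5. Tap1 (chr17:34187553-34197225, plus strand, mm10) and Psmb9 (chr17:34181987-34187764, minus strand) stand head to head, with RefSeq starts 226 bases apart on opposite strands. Their windows overlap over 275 bases, and the Psmb9 start is base 25 of the Tap1 window. The sequences are shown because Tap1 and Psmb9 had the largest called differences in the results below and share this region. Those of H2-K1, H2-D1 and B2m are shown because they share a different arrangement. A link between either arrangement and the levels of these genes was not tested. Capitals mark matches, on either strand, to 4 motifs. These include the interferon-stimulated response element core GAAANNGAAA, the gamma-activated site TTCNNNGAA, and the X2 box core TGACG. The fourth motif is the CCAAT box, which reads ATTGG on the other strand.
Tap1, chr17:34187306-34187605, plus strand: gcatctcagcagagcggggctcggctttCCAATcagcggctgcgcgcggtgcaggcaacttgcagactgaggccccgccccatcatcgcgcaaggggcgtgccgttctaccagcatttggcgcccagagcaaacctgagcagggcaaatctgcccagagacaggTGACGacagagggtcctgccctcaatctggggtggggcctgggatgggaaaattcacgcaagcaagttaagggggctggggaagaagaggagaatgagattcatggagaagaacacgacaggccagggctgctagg
Psmb8, chr17:34197945-34198244, plus strand: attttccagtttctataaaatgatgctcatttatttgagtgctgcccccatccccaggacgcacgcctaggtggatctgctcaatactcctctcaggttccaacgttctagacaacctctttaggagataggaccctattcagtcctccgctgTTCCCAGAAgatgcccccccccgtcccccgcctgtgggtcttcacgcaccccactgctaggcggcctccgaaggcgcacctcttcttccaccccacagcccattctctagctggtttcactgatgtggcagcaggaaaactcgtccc
H2-K1, chr17:34000298-34000597, minus strand: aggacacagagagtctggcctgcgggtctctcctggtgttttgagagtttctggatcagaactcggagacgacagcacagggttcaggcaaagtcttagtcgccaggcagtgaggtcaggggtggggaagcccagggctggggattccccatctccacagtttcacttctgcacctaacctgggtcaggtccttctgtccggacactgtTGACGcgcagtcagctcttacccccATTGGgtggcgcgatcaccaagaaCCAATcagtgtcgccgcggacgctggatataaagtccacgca
H2-D1, chr17:35262844-35263143, plus strand: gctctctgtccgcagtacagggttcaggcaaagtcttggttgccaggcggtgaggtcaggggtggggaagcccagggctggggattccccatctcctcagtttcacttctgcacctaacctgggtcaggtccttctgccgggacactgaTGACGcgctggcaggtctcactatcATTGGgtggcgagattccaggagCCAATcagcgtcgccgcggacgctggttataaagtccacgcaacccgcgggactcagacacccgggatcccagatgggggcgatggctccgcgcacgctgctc
B2m, chr2:122147437-122147736, plus strand: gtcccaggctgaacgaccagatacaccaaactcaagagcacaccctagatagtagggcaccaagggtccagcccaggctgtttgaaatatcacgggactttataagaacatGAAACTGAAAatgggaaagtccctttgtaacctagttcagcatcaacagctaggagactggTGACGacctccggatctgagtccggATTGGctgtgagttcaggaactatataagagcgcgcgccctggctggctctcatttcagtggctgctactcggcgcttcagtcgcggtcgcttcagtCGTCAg

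In the H2-K1, H2-D1 and B2m windows, TGACG is followed after 20 bases by ATTGG. In B2m this pair begins 78 bases before the transcript start, in H2-D1 101 bases and in H2-K1 41 bases before the start of the printed window. This spacing was looked for after the windows had been seen, and it occurs in 19 of all 32851 mouse promoter windows (0.0578%). Among the other class I heavy chains, 1 of 11 genes with a window held it, H2-M3. The windows of Tap1, Psmb9, Psmb8, Tapbp and Erap1 did not contain these letters at this spacing. Each of these windows lies at a single RefSeq start, and other starts of these genes were not searched. For Tapbp that start is 33919478, inside the annotated gene, which begins at 33915899. TGACG alone was also in the Tap1 and Psmb9 windows and is in 20.8% of all windows, whereas CCAAT is in 37.4%. The response element core was found in B2m (GAAACTGAAA, 139 to 130 bases before the start) and, on the other strand, in Erap1 (TTTCACTTTC, across the start), against 3.44% of all windows. A gamma-activated site, in 8.3% of all windows, was found in Psmb8 alone (TTCCCAGAA, 97 to 89 bases before the start). Within a window no match overlapped another. The TGACG and CCAAT matches of the Tap1 and Psmb9 windows are the same bases, read on opposite strands. Each match is a description of letters only.

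Per kilobase of merged exon, B2m had the highest level, with 5985 CPM per kb on average over the 8 libraries and a range of 4156 to 7623. H2-D1 followed with 2377 (2153 to 2628) and H2-K1 with 1127 CPM per kb (889 to 1355), and these ranges do not overlap. Tapbp stood at 205 (158 to 265), Psmb8 at 131 (58.1 to 216), Psmb9 at 110 (25.1 to 217), Tap1 at 83.7 (28.9 to 133) and Tap2 at 60.4 CPM per kb (37.6 to 89.7), and each of these 5 overlapped its neighbour in the order. Erap1, at 17.0 CPM per kb (15.6 to 18.7), and Nlrc5, at 10.1 (7.49 to 12.02), were lowest and did not overlap each other. Together the 10 genes took 1.45% to 1.91% of the counted reads, most of them from H2-K1, H2-D1 and B2m (1.14% to 1.73%).

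The heavy and light chains varied little beside the transporter and proteasome genes. H2-K1, a classical heavy chain, was at 3979.7 and 3769 CPM in SSMs from ndLN, 3911 and 3839 CPM in SSMs from tdLN, 2613 and 2647 CPM in MSMs from ndLN and 2854 and 2873 CPM in MSMs from tdLN (pools 1 and 2 in this order here and below). All 4 SSM libraries lay above all 4 MSM libraries. H2-D1, the other classical heavy chain, was at 5853 and 6021, 6777 and 6529, 6430.5 and 5553, and 6099 and 5781 CPM in the same order of groups. Its SSM and MSM libraries overlapped. B2m, the light chain that every class I heavy chain needs to fold, was at 5494 and 4062, 6304 and 6556, 3574 and 4339, and 4857 and 5988 CPM. In both subsets its 2 tdLN libraries lay above the 2 ndLN libraries.

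Tap1, a chain of the peptide transporter, was at 190.5 and 159 CPM in SSMs from ndLN, 352 and 313 CPM in SSMs from tdLN, 727 and 553 CPM in MSMs from ndLN and 685 and 689 CPM in MSMs from tdLN. Its partner chain Tap2 was at 142 and 159.8, 154 and 153, 339 and 257, and 306 and 318 CPM. Both chains were higher in every MSM library than in any SSM library, but only Tap1 separated the SSMs of the 2 kinds of node. Psmb8, an inducible catalytic subunit, was at 226 and 196 CPM in SSMs from ndLN, 324 and 375 CPM in SSMs from tdLN, 567 and 499 CPM in MSMs from ndLN and 619.8 and 732 CPM in MSMs from tdLN. Psmb9, the inducible subunit encoded next to Tap1, was at 124 and 91.7, 195 and 238, 609 and 553, and 609 and 793 CPM. For both subunits the SSM libraries from ndLN were lowest, those from tdLN next, and the MSM libraries highest, without overlap between these 3 levels.

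Tapbp, which bridges empty class I molecules to the transporter, was at 581 and 573, 699 and 736, 963 and 649, and 861 and 881 CPM. Pool 2 of MSMs from ndLN, at 649 CPM, lay below both SSM libraries from tdLN. Erap1, the trimming aminopeptidase, was at 125 and 127, 127 and 113, 128 and 136, and 115 and 119.9 CPM, and Nlrc5 at 89.4 and 85.9, 102 and 80.0, 80.3 and 63.6, and 86.8 and 95.7 CPM. In tdLN the SSM and MSM libraries of Erap1 overlapped, as did those of Nlrc5. In ndLN they did not. Erap1 reached 127.2 CPM in SSMs and began at 127.6 CPM in MSMs, and Nlrc5 began at 85.9 CPM in SSMs and reached 80.3 CPM in MSMs.

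**Figure D1:**
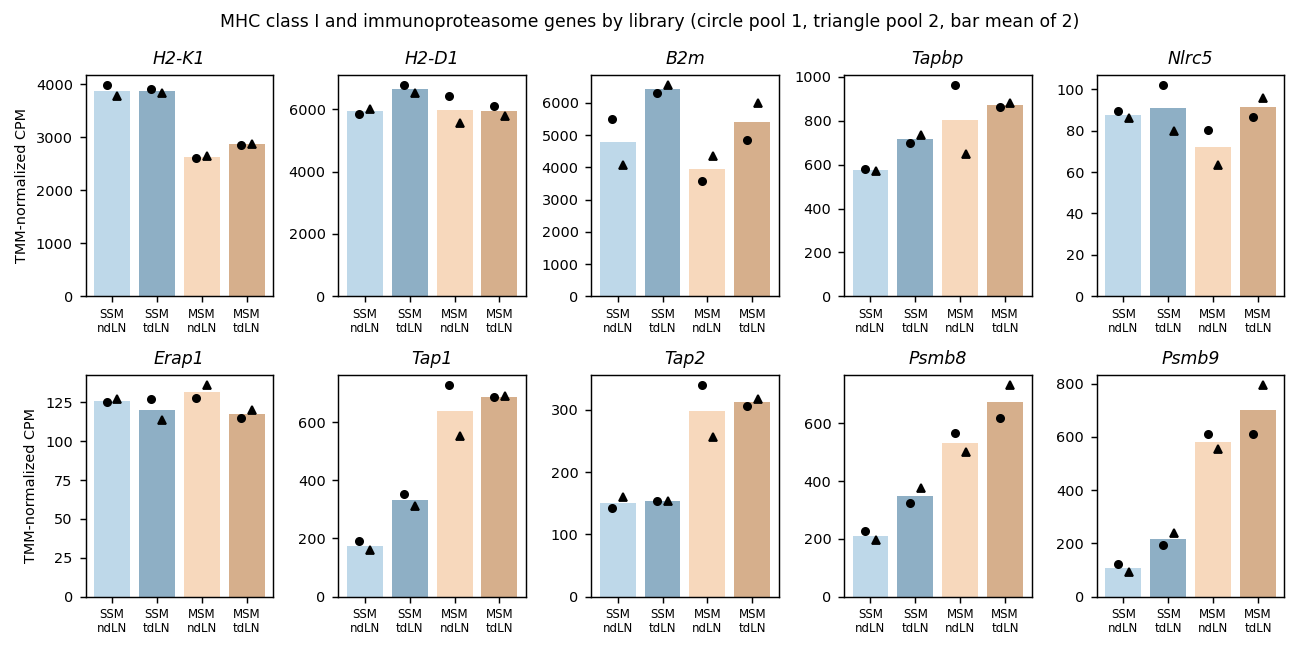
TMM-normalized CPM of each of the 10 genes (y axis, linear from 0) in the 4 groups (x axis), with a circle for pool 1, a triangle for pool 2 and a bar for the mean of 2 libraries. Psmb9 runs from 91.7 CPM in an SSM library from ndLN to 793 CPM in an MSM library from tdLN, whereas Erap1 stays between 113 and 136 CPM.

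Between SSMs and MSMs from ndLN, the comparison that describes the subsets outside the draining node, both inducible proteasome subunits and both transporter chains were lower in SSMs, and H2-K1 was higher. Psmb9 was 5.38-fold lower (log2 fold change -2.43, standard error 0.212, adjusted p = 2.10e-04, edgeR) and Tap1 3.66-fold lower (-1.87, standard error 0.135, adjusted p = 8.82e-05, edgeR). Psmb8 was 2.52-fold lower (-1.34, standard error 0.155, adjusted p = 7.57e-04, edgeR) and Tap2 1.97-fold lower (-0.98, standard error 0.162, adjusted p = 0.00409, edgeR). H2-K1 was 1.47-fold higher (0.56, standard error 0.0873, adjusted p = 0.00308, edgeR). A gene was called at an adjusted p under 0.01 and a mean normalized count over 100. By that rule 4 of the 10 genes were lower and 1 was higher, against 6.06% of the 21085 tested genes lower, 6.01% higher and 12.1% in either direction. The median log2 fold change was -0.27 over the 10 genes and 0.09 over all tested genes.

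The remaining 5 did not pass. The log2 fold change of Tapbp was -0.47 with a 95% interval of -0.87 to -0.08 (adjusted p = 0.0872, edgeR). H2-D1 differed by -0.01 (interval -0.22 to 0.20), Erap1 by -0.06 (-0.38 to 0.25), Nlrc5 by 0.29 (-0.10 to 0.69) and B2m by 0.28 (-0.13 to 0.69). With 2 libraries a group, differences within these intervals are not excluded. The calls of Psmb9 and Tap1 held with each of the 8 libraries left out, whereas that of Psmb8 was lost without pool 1 of MSMs from ndLN, that of H2-K1 without any 1 of 6 libraries and that of Tap2 without any 1 of 7, and fitting the 4 ndLN libraries alone left 2 calls, Psmb9 and Tap1. The libraries whose loss kept the H2-K1 call were the 2 of SSMs from ndLN, and for Tap2 it was pool 2 of MSMs from ndLN.

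In tdLN the same 4 genes were lower in SSMs, by smaller folds for 3 of them, a contrast tested as the interaction below. Psmb9 was 3.24-fold lower (log2 fold change -1.70, standard error 0.205, adjusted p = 0.00131, edgeR), Tap1 2.08-fold lower (-1.05, standard error 0.132, adjusted p = 0.00148, edgeR), Tap2 2.03-fold lower (-1.02, standard error 0.162, adjusted p = 0.00437, edgeR) and Psmb8 1.93-fold lower (-0.95, standard error 0.153, adjusted p = 0.00474, edgeR). H2-K1 differed by 0.44 (standard error 0.0872), which missed the threshold with pool as a block (adjusted p = 0.0128, edgeR) but passed it without the block (adjusted p = 0.00615, edgeR). Thus 4 of 10 were lower, against 3.53% of tested genes lower and 8.69% in either direction, and 0 were higher by edgeR, with H2-K1 alone among the positive values at an unadjusted p under 0.05 and called by DESeq2. Over its alternatives the adjusted p of H2-K1 ranged from 4.28e-04 to 0.216. The 4 calls were all lost without either library of SSMs from tdLN or without pool 2 of MSMs from tdLN, and without pool 1 of MSMs from tdLN 2 were kept, Psmb9 and Tap1. Leaving out a library of MSMs from ndLN lost the call of Psmb8.

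The next question was whether drainage of a tumor went with a change within each subset. The tumor lay near the inguinal node, whereas ndLN were contralateral inguinal, axillary and brachial nodes. Drainage thus cannot be told apart from node site and side. In SSMs Tap1 rose 1.91-fold in tdLN relative to ndLN (log2 fold change 0.93, standard error 0.132, adjusted p = 0.00662, edgeR), the only call among the 10 genes, against 1.99% of tested genes higher and 3.04% in either direction. Psmb9 differed by 1.00 (standard error 0.205, adjusted p = 0.0241, edgeR) and Psmb8 by 0.73 (standard error 0.153, adjusted p = 0.0268, edgeR), both past an adjusted p of 0.05 but not 0.01, and both called by DESeq2. B2m differed by 0.42 (interval 0.02 to 0.83, adjusted p = 0.198, edgeR) and Tapbp by 0.32 (-0.08 to 0.71). Tap2, with 0.02 (-0.36 to 0.40), H2-K1, with 0.00 (-0.20 to 0.20), H2-D1, with 0.16 (-0.05 to 0.38), Erap1, with -0.07 (-0.38 to 0.25), and Nlrc5, with 0.05 (-0.35 to 0.44), had intervals that include 0. The median over the 10 genes was 0.24, and over all tested genes -0.04. The Tap1 call rests on all libraries: leaving out any 1 of the 8 raised its adjusted p to between 0.0141 and 0.109, and the fit of SSM libraries alone gave 0.0489, while its log2 fold change stayed between 0.87 and 0.97. The sums of all 8 marker lists also separated these groups without overlap. Those of sinus macrophage, neutrophil (14.8 and 120.4 CPM in ndLN, 252 and 129 CPM in tdLN) and B cell markers were higher in SSMs from tdLN. Those of dendritic, T, innate lymphoid, mast, and endothelial and stromal cell markers were lower. Genes of a list did not all move with its sum. The endothelial and stromal sum was mostly Pecam1 (74.5 and 69.0 CPM in ndLN, 47.0 and 51.8 CPM in tdLN). That list's median log2 fold change was 1.57, and that of B cell markers was -0.29. Of 12 dendritic cell markers edgeR called 1 higher and 0 lower (1.99% and 1.05% of all tested genes), with a median of -0.58. The part of these markers in the Tap1 value was not tested either.

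In MSMs 0 of the 10 genes differed between tdLN and ndLN at the threshold, where 0.0237% of tested genes were called by edgeR (5 genes). At an unadjusted p under 0.05 there was 1, B2m, with a log2 fold change of 0.45 (interval 0.05 to 0.86, adjusted p = 0.36, edgeR), and DESeq2 also called 0. Tap1 differed by 0.12 (interval -0.19 to 0.42), Psmb8 by 0.34 (-0.01 to 0.70), Psmb9 by 0.27 (-0.20 to 0.73) and H2-K1 by 0.12 (-0.08 to 0.33). B2m thus had nearly equal values in the 2 subsets, 0.42 in SSMs and 0.45 in MSMs, neither of them past the test.

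Whether the effect of the draining node differed between subsets was tested by the interaction term. By edgeR 0 of the 10 genes passed, where 0.0379% of tested genes did, and 2 had an unadjusted p under 0.05. The excess in SSMs was 0.82 for Tap1 (standard error 0.185, interval 0.38 to 1.25, adjusted p = 0.108, edgeR) and 0.73 for Psmb9 (interval 0.07 to 1.40, adjusted p = 0.344, edgeR). DESeq2 called 1, Tap1 (adjusted p = 0.0044). The call of a different response of Tap1 in SSMs and MSMs thus depended on the tool.

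**Figure D2:**
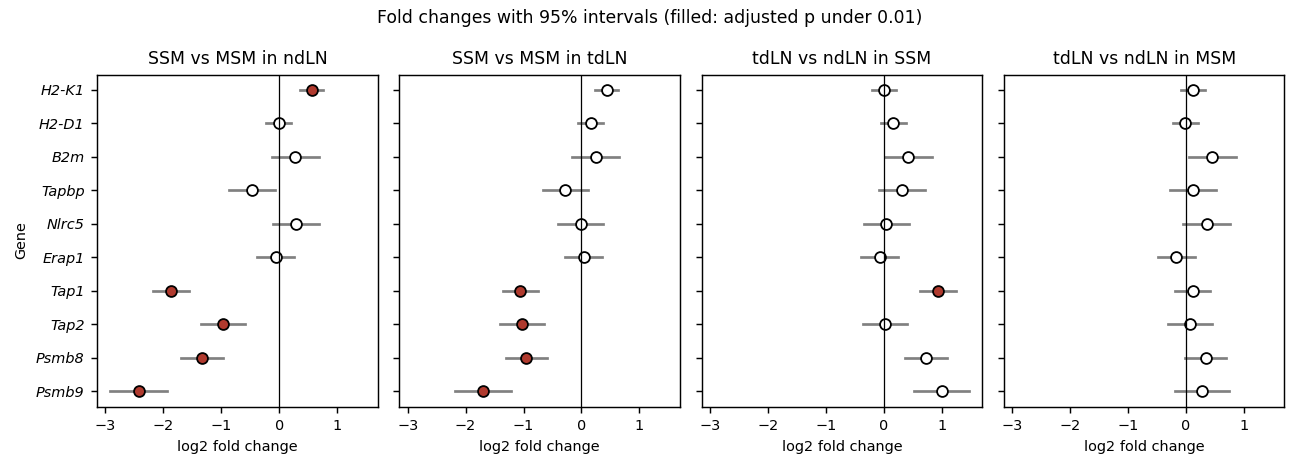
Log2 fold change (x axis) of the 10 genes (y axis) in 4 comparisons, with 95% intervals as lines and filled points for an adjusted p under 0.01 (edgeR). Psmb9, Tap1, Psmb8 and Tap2 lie left of 0 in both comparisons of SSMs with MSMs, and only Tap1 is filled between tdLN and ndLN of SSMs.

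Ratios within each library compare genes that act together. The transporter is a pair of 1 Tap1 and 1 Tap2 chain, and the ratio of their levels per kb was 0.925 and 0.685 in SSMs from ndLN, against 1.58 and 1.42 in SSMs from tdLN, 1.48 and 1.49 in MSMs from ndLN and 1.55 and 1.50 in MSMs from tdLN. The 2 libraries of SSMs from ndLN were the only ones with less Tap1 than Tap2. The ratio of H2-K1 to H2-D1 was 0.597 and 0.549 in SSMs from ndLN, 0.507 and 0.516 in those from tdLN, and 0.357 to 0.436 over the 4 MSM libraries. H2-K1 to Tap1, a heavy chain against the transporter, was 38.9 and 44.3 in SSMs from ndLN, 20.7 and 22.9 in SSMs from tdLN and 6.70 to 8.91 in MSMs. These ratios are descriptions and were not tested, and their absolute values depend on the merged exon lengths.

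Each inducible catalytic subunit replaces a constitutive one, Psmb8 for Psmb5, Psmb9 for Psmb6 and Psmb10 for Psmb7. The level ratio Psmb9 to Psmb6 per kb was 0.411 and 0.309 in SSMs from ndLN, 0.494 and 0.603 in SSMs from tdLN, 1.39 and 1.40 in MSMs from ndLN and 1.37 and 1.57 in MSMs from tdLN. Psmb8 to Psmb5 was 1.53 and 1.44, 1.75 and 1.91, 2.42 and 2.64, and 2.48 and 2.68 in the same order. Psmb10 to Psmb7 went the other way, with 9.08 and 7.92, 9.75 and 9.44, 4.59 and 3.88, and 4.50 and 4.99. Thus in every library of SSMs 2 of the 3 ratios were below, and 1 was above, those of every MSM library. Psmb10 itself was not called between subsets in ndLN (log2 fold change 0.19, interval -0.23 to 0.61) or in tdLN (0.48, interval 0.06 to 0.90, adjusted p = 0.124, edgeR). Of the 3 constitutive subunits 0 were called by edgeR in any comparison, but in ndLN all 3 had an unadjusted p under 0.05 with lower levels in SSMs, and Psmb7 differed by -0.82 (standard error 0.17, adjusted p = 0.0109, edgeR, and called by DESeq2) and Psmb6 by -0.48 (standard error 0.132, adjusted p = 0.0371, edgeR). In tdLN Psmb7 differed by -0.53 (adjusted p = 0.0754, edgeR) and Psmb5 by -0.45 (adjusted p = 0.125, edgeR) between subsets. Between the nodes of SSMs Psmb6 differed by 0.40 (adjusted p = 0.117, edgeR) and Psmb7 by 0.50 (adjusted p = 0.127, edgeR).

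**Figure D3:**
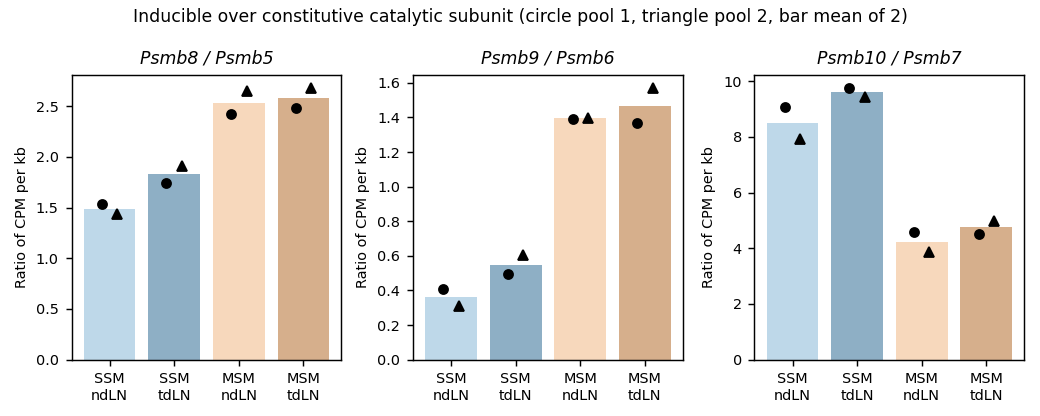
Ratio of CPM per kb of the inducible to the constitutive catalytic subunit (y axes, linear from 0) in the 4 groups, with circles for pool 1, triangles for pool 2 and bars for means of 2 libraries. Psmb9 to Psmb6 spans 0.309 to 0.603 in SSMs and 1.37 to 1.57 in MSMs, and Psmb10 to Psmb7 lies higher in SSMs.

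Several other genes of peptide supply and loading were also lower in SSMs. Between SSMs and MSMs from ndLN, 6 of 16 were lower in SSMs and 0 higher by edgeR or DESeq2 (6.06% and 6.01% of all tested genes by edgeR), and the list's median on the log2 scale was -0.33 (all tested genes 0.09). Psme1, a chain of the PA28 proteasome activator, differed by -1.35 (standard error 0.142, adjusted p = 4.99e-04, edgeR) and Pomp, the assembly chaperone of the proteasome, by -1.51 (standard error 0.177, adjusted p = 8.10e-04, edgeR). The others called were Pdia3 and Calr, which belong to the loading complex, the aminopeptidase Lap3, and Psme2, the second PA28 chain. In tdLN 2 of 16 were lower in SSMs (3.53% of all tested genes), Psme1 (-1.01, adjusted p = 0.00249, edgeR) and Psme2 (-0.89, adjusted p = 0.00418, edgeR), and 0 were higher, where DESeq2 called 6 lower and 1 higher. Between tdLN and ndLN of SSMs 0 of 16 were called by edgeR, with 5 at an unadjusted p under 0.05, led by Pomp (0.76, adjusted p = 0.0367, edgeR) and Psmb10 (0.67, adjusted p = 0.0609, edgeR), where DESeq2 called 1 in each direction.

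Of the 16 other class I heavy chains 15 could be tested, all but H2-T3. In ndLN 2 were higher in SSMs, H2-Q6 (log2 fold change 1.16, standard error 0.123, adjusted p = 5.22e-04, edgeR) and H2-Q7 (1.02, standard error 0.12, adjusted p = 8.00e-04, edgeR), which encode Qa-2 antigens. Lower in SSMs were 3, the formyl-peptide presenter H2-M3 (-1.25), H2-M2 (-2.20) and the lipid presenter Cd1d1 (-1.26). Of all tested genes 6.01% were higher and 6.06% lower in SSMs of ndLN. The level of H2-Q6 was 657 and 730.5 CPM in SSMs from ndLN, 362 and 398 CPM in those from tdLN and 274 to 351 CPM in MSMs. H2-M3 was at 53.7 and 51.9, 118 and 114, and 108 to 145 CPM. Between tdLN and ndLN of SSMs H2-M3 rose (1.14, standard error 0.157, adjusted p = 0.00603, edgeR) and H2-Q6 fell (-0.87, standard error 0.122, adjusted p = 0.00653, edgeR), the 2 calls of the list (1.99% of all tested genes higher and 1.05% lower). In tdLN 1 was lower in SSMs, H2-M2 (-3.17, standard error 0.291, adjusted p = 4.01e-04, edgeR), and 0 were higher, where DESeq2 called 4, among them H2-T24 (2.15, adjusted p = 0.0175, edgeR). Of all tested genes edgeR called 3.53% lower and 5.16% higher in SSMs of tdLN. Heavy chains share sequence, so that 9.63% of the 50-base windows of H2-K1 transcripts, 12.8% of H2-D1, 32.0% of H2-Q6 and 26.4% of H2-Q7 also occur in other genes. Their counts are therefore uncertain, by an amount that these shares do not measure.

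**Figure D4:**
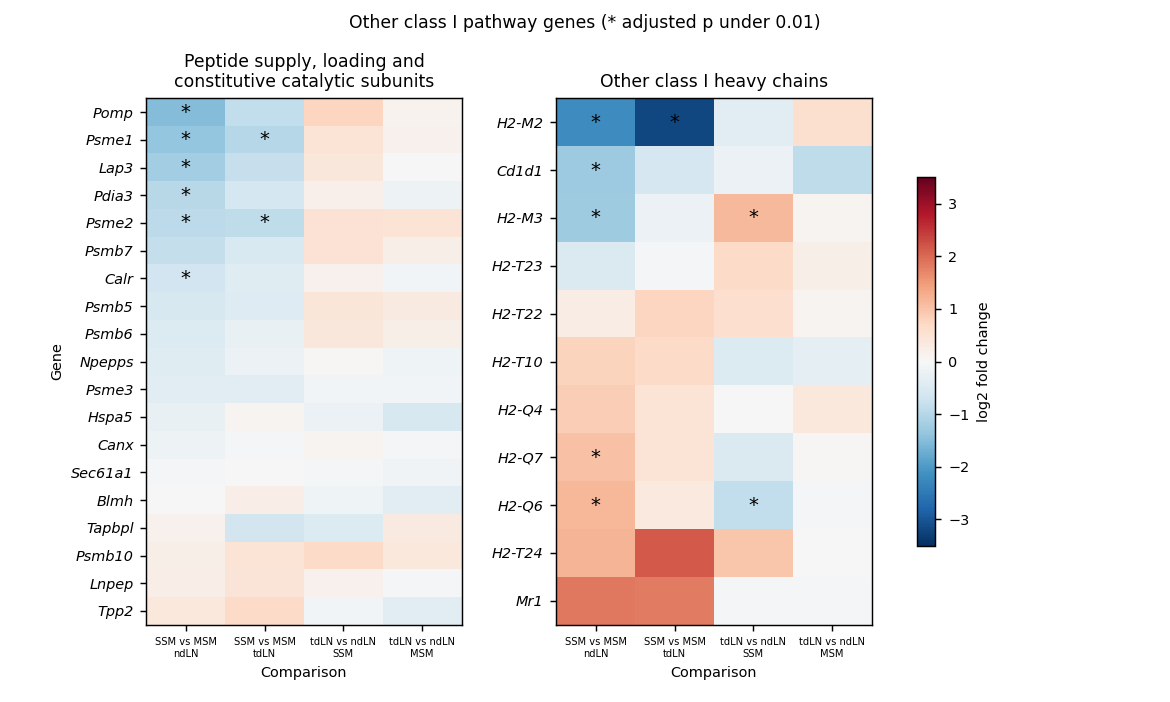
Log2 fold change (color) of other class I pathway genes with a mean normalized count over 100 (rows) in 4 comparisons (columns), with asterisks for an adjusted p under 0.01 (edgeR). Genes of peptide supply such as Pomp and Psme1 are lower in SSMs of ndLN, whereas H2-Q6 and H2-Q7 are higher there.

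Among 14 transcription regulators of class I genes, 2 stood higher and 2 lower in SSMs of ndLN, where 6.01% and 6.06% of all tested genes did. Irf8, an interferon regulatory factor of myeloid and dendritic cells, was at 713 to 833 CPM in SSMs and at 1783 to 2599.5 CPM in MSMs, and differed by -1.32 in ndLN (standard error 0.157, adjusted p = 8.49e-04, edgeR) and by -1.64 in tdLN (standard error 0.158, adjusted p = 4.97e-04, edgeR), where it was the single call and Stat2 came next (0.70, adjusted p = 0.0327, edgeR). Rela, an NF-kappa B subunit, was higher in SSMs from ndLN (0.91, standard error 0.155, adjusted p = 0.00468, edgeR), as was Nfkb1 (0.88), and Rfxap, a part of the RFX complex that binds class I and class II promoters, was lower (-0.85). Irf1 differed by 0.17 in ndLN (interval -0.18 to 0.52) and did not pass. In SSMs 1 of 14 differed between nodes by edgeR (3.04% of all tested genes), Stat2, a signal transducer of type I interferon, which was at 77.7 and 51.7 CPM in ndLN and at 170.4 and 142 CPM in tdLN (1.28, standard error 0.178, adjusted p = 0.00617, edgeR). Nfkb1 (-0.77, adjusted p = 0.0356, edgeR) did not pass there by edgeR, whereas DESeq2 called Stat2 and Irf9 as higher and Nfkb1 and Rela as lower in tdLN.

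Most calls among interferon-inducible genes outside antigen presentation were of higher levels in SSMs. In ndLN 6 of 13 were above MSMs and 1 below, against 6.01% and 6.06% of all tested genes, with a list median of 1.18 on the log2 scale (all tested genes 0.09). In tdLN 7 were above, against 5.16% of all tested genes, and 0 below by edgeR, with 2 of those below at an unadjusted p under 0.05 and 1 called by DESeq2, Cxcl9. Gbp7, a guanylate-binding protein gene, was higher by 2.55 in ndLN (standard error 0.234, adjusted p = 2.63e-04, edgeR) and by 2.87 in tdLN (standard error 0.232, adjusted p = 2.31e-04, edgeR). Gbp6 was higher by 3.59 in ndLN (standard error 0.401, adjusted p = 6.19e-04, edgeR), and Igtp, an immunity-related GTPase gene, by 2.72 in tdLN (standard error 0.239, adjusted p = 3.28e-04, edgeR). Cxcl9, a chemokine gene induced by interferon-gamma, was the call in the other direction in ndLN (-3.75, standard error 0.444, adjusted p = 8.32e-04, edgeR). Between the nodes of SSMs 0 of 13 passed by edgeR, with 5 at an unadjusted p under 0.05, led by Irgm1 (1.02, adjusted p = 0.0379, edgeR) and Gbp3 (0.74, adjusted p = 0.0774, edgeR), and DESeq2 called 2.

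Of 8 interferon receptor, kinase and feedback genes, 4 were higher in SSMs of ndLN and 0 lower by edgeR (6.01% and 6.06% of all tested genes), where DESeq2 called Jak2 as lower. Socs1, the feedback inhibitor of interferon receptors, was at 229 and 235 CPM in SSMs from ndLN, at 69.8 and 79.5 CPM in SSMs from tdLN and at 39.8 to 67.6 CPM in MSMs. It was above MSMs in ndLN (2.13, standard error 0.241, adjusted p = 6.97e-04, edgeR) and fell between ndLN and tdLN of SSMs (-1.63, standard error 0.235, adjusted p = 0.00697, edgeR), where Ifngr2, the second chain of the interferon-gamma receptor, differed by 0.55 (adjusted p = 0.0277, edgeR). Ifngr1, the ligand-binding chain of the interferon-gamma receptor, was higher in SSMs from ndLN (1.04, standard error 0.121, adjusted p = 7.72e-04, edgeR) and from tdLN (1.01, standard error 0.121, adjusted p = 0.00123, edgeR). Ifnar2 and Jak1 were higher in SSMs in both kinds of node (Ifnar2 by 1.04 in tdLN, adjusted p = 0.00186, edgeR), and Jak2 was lower in SSMs in tdLN (-0.93, adjusted p = 0.00456, edgeR). In MSMs 0 genes of any of these lists were called between tdLN and ndLN by edgeR or DESeq2, and each list had between 0 and 5 genes at an unadjusted p under 0.05.

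Among the 10 genes themselves, Psmb8, Psmb9 and Tap1 had the most similar levels across libraries. On log2(CPM + 1) over the 8 libraries, Pearson's r was 0.990 between Psmb8 and Psmb9, 0.981 between Tap1 and Psmb9 and 0.976 between Tap1 and Psmb8. Tap2 had an r of 0.918 with Psmb9, and H2-K1 had one of -0.957 with Tap2. Nlrc5 had an r of 0.484 with H2-K1, 0.458 with H2-D1, 0.496 with B2m and -0.183 with Tap1. The libraries fall into SSMs and MSMs, so these values mostly describe that division and carry no p. The mean of the 10 standardized profiles had an r of 0.638 to 0.890 with Tap1, Tap2, Tapbp, Psmb8 and Psmb9, 0.230 to 0.337 with H2-D1, B2m and Nlrc5, -0.306 with Erap1 and -0.489 with H2-K1, and so does not stand for all of them. Outside the group, the genes with a profile most like this mean were Abhd5 (r = 0.979), Ttc7 (0.975), Rnaseh1 (0.974), Dtd2 (0.973) and Mrps10 (0.971), among 9986 genes compared over 8 libraries.

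Some exons of the 10 genes overlap other genes, and the strand setting of the counting is not given in the sources used here. Tap1 and Psmb9 overlap over 212 exon bases on opposite strands, Erap1 and Cast over 834, Tapbp and the antisense gene Gm19412 over 904, and Tap2 and Psmb8 overlap the antisense gene Gm20496 over 165 and 498 bases. Reads from these stretches cannot be assigned to a strand here, and the values of those genes hold with that limit.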

How the data were processed

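RNA was measured by sequencing of SMART-Seq v4 libraries from SSMs and MSMs of tdLN and ndLN. Per the labels, reads were trimmed with Trimmomatic 0.36 and aligned with STAR 2.5.3a to GRCm38 (mm10), and the authors deposited raw counts per gene, without normalization. The strand setting and counting mode are not given in the sources used here. The annotation was taken as GENCODE M21, which gave symbols for 55154 of 55423 rows, and 2 rows for added sequences were left out of totals.

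The 2 lanes of each library were summed. Genes with at least 10 counts in total and detected in at least 2 of 16 samples were kept. Counts were TMM-normalized in edgeR 4.0.16 under R 4.3.3 (factors 0.902 to 1.15) and contrasts were fitted with the quasi-likelihood test of edgeR over all 8 libraries with group and pool as terms, with Benjamini-Hochberg adjustment over all 21085 genes. Pool was a term because the study's models contain it. The pool numbers come from the labels, except for 1 library of SSMs from tdLN that the labels do not number and that the study's sample matrix places with pool 1. Per the study's methods every pool of mice gave all 4 groups. Deviations of same-numbered libraries from their group means had correlations between -0.193 and 0.148 over 10000 genes. Normalized counts for the minimum of 100 are on the scale of 1 lane. Depths of 42972328 to 48130352 reads put a floor of 3 counts at 0.0623 to 0.0698 CPM, which covers counting error only. Libraries are pools of mice, 2 a group. The p-values of edgeR set a contrast against the spread left between libraries after the group and pool terms. That spread is estimated over all 8 libraries and moderated across genes. The fits were tested on simulated counts without a pool effect. With no gene changed, edgeR called 0 genes between nodes in either subset, and DESeq2 called 15 in SSMs and 8 in MSMs. With 200 genes changed 4-fold in SSMs from tdLN, edgeR called 172 of these and 4 unchanged genes in SSMs. DESeq2 called 189 of these and 23 unchanged genes, so it was less strict in these simulations. Smaller changes, such as the 1.91-fold difference of Tap1 between the nodes of SSMs, were not simulated.

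The 10 genes, the other lists and the tests were chosen with earlier results of these data known. All 10 genes were to be named, with the 2 smallest p-values of each other list. 1 gene of the list of transcription regulators is not reported here. Other genes of those lists, and the windows beyond Tap1 and Psmb9, were named after their values were seen. Marker values are sums of CPM. Promoter windows came from RefSeq (GRCm38.p6), in which 8 of 10 genes matched. Alternatives were no pool term, DESeq2 1.42.0 as test or as size factors, no low-count filter, an adjusted p of 0.05, the compared groups alone, each lane alone and each library left out. Figures were drawn with matplotlib 3.10.9 under Python 3.11.15.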

Additional observations from a re-analysis of the deposited data

How the results depend on the processing

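The number of the 10 genes called in each comparison moved by over 1.5 times in these cases. Fitting only the groups compared gave 2 calls for SSMs against MSMs in ndLN, and 0 between the nodes of SSMs. DESeq2's Wald test and an adjusted p of 0.05 each gave 3 between the nodes of SSMs (Tap1, Psmb8 and Psmb9), and DESeq2 gave 1 in the interaction (Tap1). Leaving out 1 library gave 2 to 4 calls for SSMs against MSMs in ndLN, 0 to 5 in tdLN, and 0 between the nodes of SSMs. Without pool as a replicate block the 5 calls in ndLN, 1 between the nodes of SSMs and 0 in MSMs and in the interaction were made as with it, and 5 instead of 4 in tdLN. The added call is H2-K1, and the block changed no other call of the 10 genes. Over all alternatives, all tested genes gave 952 to 3885 calls for SSMs against MSMs in ndLN, 507 to 3026 in tdLN, 0 to 1973 between the nodes of SSMs, 0 to 503 in MSMs and 0 to 706 in the interaction.

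Of 790 recomputed fold changes of the 10 genes, 694 kept direction and call, 42 lost the call, 11 gained it and 43 changed sign, all of them of values that were not called. In SSMs against MSMs from ndLN, H2-D1 was 0.0358 with DESeq2 or its size factors and 0.0623 in the groups alone, and Erap1 0.0097 in the groups alone. In tdLN Nlrc5 was 0.0016 with DESeq2 and 0.0021 with its size factors. Between the nodes of SSMs DESeq2 and its size factors gave -0.059 and -0.059 for H2-K1, -0.013 and -0.0123 for Nlrc5 and -0.0395 and -0.0393 for Tap2, the groups alone gave -0.0145 and lane 4 alone -0.0006 for H2-K1. With 1 library left out, the ranges that crossed 0 were, in SSMs against MSMs from ndLN, -0.0619 to 0.5863 for B2m and -0.0998 to 0.0816 for H2-D1, and in tdLN -0.0759 to 0.1463 for Erap1 and -0.205 to 0.1829 for Nlrc5. Between the nodes of SSMs they were -0.2002 to 0.0416 for Erap1, -0.0386 to 0.0403 for H2-K1, -0.1076 to 0.1778 for Nlrc5 and -0.1186 to 0.169 for Tap2. Between the nodes of MSMs they were -0.0997 to 0.0817 for H2-D1, -0.0267 to 0.2558 for Tap1, -0.1576 to 0.3154 for Tap2 and -0.1593 to 0.4395 for Tapbp. In the interaction they were -0.3316 to 0.3167 for B2m, -0.0244 to 0.2084 for Erap1, -0.2912 to 0.1818 for Tap2 and -0.1247 to 0.474 for Tapbp. The cause was not tested for any of these.

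Depth limits these values little, since the lowest of the 10 genes, Nlrc5, had at least 63.6 CPM in each library, and 2 libraries a group limit them more. DESeq2's size factors moved the median log2 fold change of all genes by under 0.1.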
